A study of Sus scrofa with 5 samples.

Results

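Genes of fatty acid oxidation and of peroxisomes were followed in the pig kidney tissue of a pig-to-human kidney xenotransplantation. The members were 43 listed genes of mitochondrial and peroxisomal fatty acid breakdown, together with every symbol of the pig count table that starts with PEX and a digit, of which there were 13. Of these 56 genes, 52 were in the pig table of 15235 symbols, and all 52 passed the filter on low counts, while ACAD8, ECI1, ECH1 and AMACR were not among its symbols. They fell into 19 mitochondrial genes, 13 peroxisomal enzymes and transporters, 3 genes whose products are found in both compartments (ECI2, CRAT and ACAD11), 4 acyl-CoA synthetases and 13 PEX genes. This sorting rests on textbook locations and not on the data.

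The xenograft arm had 3 libraries, 1 core biopsy each at 12, 24 and 48 h after transplantation of a pig kidney into a human recipient, which the labels number as case 2. Control replicates 1 and 2 were 2 libraries from untransplanted control kidney at 0 h. All 5 libraries were made from total RNA of pig kidney core biopsies after depletion of ribosomal RNA, although the cell type field of the labels speaks of dissociated cells. The labels give no genotype, strain or age of the donor animals, and do not say whether the controls came from separate animals, while the biopsies share a single graft. The p-values therefore measure only the spread between these libraries.

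Fatty acids are first tied to coenzyme A by acyl-CoA synthetases. Mitochondria take up long chains by way of carnitine and shorten them in a cycle of oxidation, hydration, a second oxidation and thiolysis, passing electrons to the respiratory chain. Peroxisomes run a similar cycle on very long, branched and dicarboxylic chains with oxidases that produce hydrogen peroxide, and peroxins build the organelle and import its enzymes. The proximal tubule of the kidney relies on fatty acid oxidation for energy and is rich in both organelles.

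Levels are given as CPM, counts scaled to a common library size after TMM, which corrects library totals for composition, and fold changes set the 3 biopsies against the 2 controls. A gene was called when edgeR's quasi-likelihood test gave a Benjamini-Hochberg adjusted p under 0.05 over all 12620 genes tested. Pig-table totals ranged from 56129926 to 66169176 counts in biopsies and from 65919506 to 71108823 in controls. The 13 mitochondrially encoded genes took from 11.8% to 14.5% of counts in biopsies, against 21.9% and 33.4% in controls. The 52 members took 1.21%, 1.37% and 1.17% of counts in the biopsies at 12, 24 and 48 h, against 1.91% and 1.65% in controls. Of the counts outside the mitochondrially encoded genes, they took 1.38%, 1.6% and 1.32%, against 2.44% and 2.47%.

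Most members were lower in the xenograft. Of the 52, 36 fell, 4 rose and 12 were not called, with a median log2 fold change of -0.70, whereas 37.5% of all genes tested were called, 19.0% lower and 18.5% higher, and the median over all genes was 0.03. In 41 members all 3 biopsies lay below both controls, and in 4 they lay above both, where 32.6% and 33.7% of all genes did so. The members that rose were CPT1A and the acyl-CoA synthetases ACSL3, ACSL4 and ACSL5. In bulk tissue, fewer cells of a type and less RNA per cell cannot be told apart. Leaving out control replicate 1 left 21 members lower and 2 higher, and leaving out control replicate 2 left 14 lower and 0 higher by edgeR, with 4 higher at an unadjusted p under 0.05, while the medians stayed at -0.72 and -0.62. Those fits called fewer genes of all kinds, with 8.24% and 5.67% of all genes lower.

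**Figure D1:**
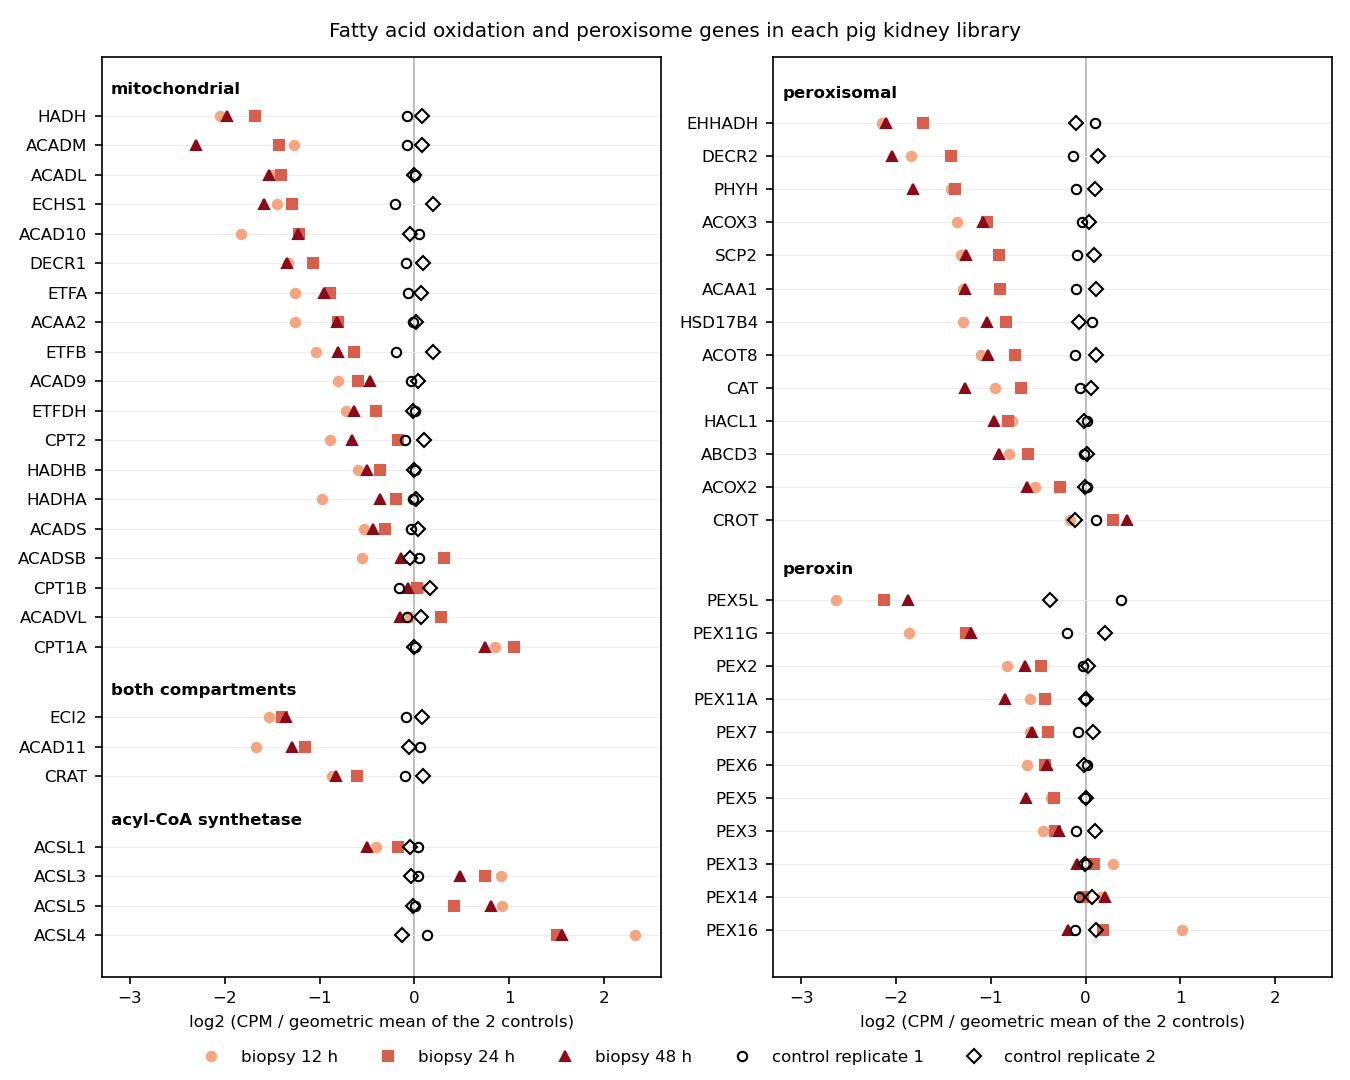
Each row is 1 gene, and each point 1 library, placed by its log2 ratio of CPM to the geometric mean of the 2 controls. Filled symbols (biopsies at 12, 24 and 48 h) lie left of the open symbols (controls) for 39 of the 50 genes drawn and right of them for CPT1A, ACSL3, ACSL4 and ACSL5; with scaling by library totals alone, ACADS, ACADSB, HADHA, ACOX2, ACSL1, PEX3, PEX5 and PEX6 change sides on average.

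Activation of fatty acids was the step with the most members higher. ACSL4, a synthetase that prefers arachidonic acid and other polyunsaturated chains, had 359.7, 202.9 and 211.2 CPM in the biopsies at 12, 24 and 48 h, against 78.3 and 65.3 CPM in control replicates 1 and 2. Every biopsy was above both controls, with the 12 h biopsy highest, and the gene rose 3.59-fold (log2 1.84 ± 0.29, SE, 3 biopsies against 2 controls, edgeR adjusted p = 0.00432). ACSL3, an enzyme of the endoplasmic reticulum and lipid droplets, had 366.1, 327.8 and 271.7 CPM in the biopsies, against 200.3 and 189.5 CPM in the controls. It rose 1.65-fold (log2 0.72 ± 0.17, edgeR adjusted p = 0.0145). ACSL5, found on mitochondria and the endoplasmic reticulum, had 82.0, 57.7 and 75.7 CPM in the biopsies, against 43.6 and 42.9 CPM in the controls, and rose 1.66-fold. ACSL1, the form abundant in tissues that oxidise or store fat, went the other way in level, with 233.8, 274.6 and 218.6 CPM in the biopsies and 318.4 and 300.9 CPM in the controls. Its groups did not overlap, but the change did not pass (log2 -0.35 ± 0.15, edgeR adjusted p = 0.0993). Leaving out control replicate 2, ACSL4 was at an edgeR adjusted p of 0.0642, ACSL3 at 0.14 and ACSL5 at 0.128, and without control replicate 1 the values of ACSL3 and ACSL5 were 0.0989 and 0.103, so that only ACSL4 was still called in that fit.

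Genes of the carnitine shuttle did not move together. CPT1A, the carnitine palmitoyltransferase of the outer mitochondrial membrane and the regulated entry step, had 154.9, 177.7 and 144.7 CPM in the biopsies, against 86.5 and 85.5 CPM in the controls. All 3 biopsies were above both controls, and CPT1A rose 1.85-fold (log2 0.89 ± 0.14, edgeR adjusted p = 0.00349), though without control replicate 2 it was at an adjusted p of 0.0592. CPT1B, the muscle form, was at 37.1, 36.4 and 34.1 CPM in the biopsies and at 31.8 and 39.9 CPM in the controls, with overlapping groups (log2 0.00 ± 0.14). CPT2, its partner on the inner membrane, had 23.0, 38.1 and 27.0 CPM in the biopsies, against 39.9 and 45.9 CPM in the controls. CPT2 did not pass (log2 -0.55 ± 0.22, edgeR adjusted p = 0.0862), but with the 24 h library left out its fall was called (log2 -0.78, edgeR adjusted p = 0.0196). CRAT, which makes short-chain acylcarnitines, fell 1.70-fold (log2 -0.77 ± 0.14, edgeR adjusted p = 0.00678), but was at 0.0873 without control replicate 2. CROT, the peroxisomal transferase for medium chains, had 33.7, 46.1 and 51.3 CPM in the biopsies and 40.9 and 35.1 CPM in the controls, and was the only gene of the peroxisomal class that was not called (log2 0.20 ± 0.19).

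Of the 19 mitochondrial genes 13 fell and 1, CPT1A, rose, with a median log2 fold change of -0.62. The acyl-CoA dehydrogenases carry out the first oxidation, each for a range of chain lengths. ACADM, for medium chains, had 830.6, 743.2 and 405.4 CPM in the biopsies, against 1891 and 2106 CPM in the controls. The 48 h biopsy was lowest, and ACADM fell 3.03-fold (log2 -1.60 ± 0.30, edgeR adjusted p = 0.00724). ACADL, for long chains, had 117.0, 125.4 and 115.1 CPM in the biopsies, against 333.1 and 331.9 CPM in the controls, nearly level within each arm. It fell 2.79-fold (log2 -1.48 ± 0.12, edgeR adjusted p = 0.000574). ACAD10 fell 2.64-fold (log2 -1.40 ± 0.19), ACAD9, also an assembly factor of respiratory complex I, fell 1.54-fold (log2 -0.62 ± 0.13), and ACADS, for short chains, fell 1.34-fold (log2 -0.42 ± 0.13). ACADVL, the very long chain enzyme of the inner membrane, did not follow, at 201.8, 252.5 and 187.2 CPM in the biopsies and 197.8 and 219.5 CPM in the controls (log2 0.04 ± 0.17, edgeR adjusted p = 0.883). ACADSB, for short branched chains, was also not called, at 338.2, 617.0 and 450.7 CPM in the biopsies and 512.8 and 481.1 CPM in the controls.

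The later steps of the mitochondrial cycle held the member of that class with the largest fall. HADH, the dehydrogenase of the second oxidation for short and medium chains, had 213.5, 276.6 and 225.1 CPM in the biopsies, against 837.2 and 937.4 CPM in the controls. The groups were far apart, and HADH fell 3.72-fold (log2 -1.90 ± 0.17, edgeR adjusted p = 0.000665). ECHS1, the hydratase that acts before it, had 502.3, 559.5 and 458.2 CPM in the biopsies, against 1194 and 1578 CPM in the controls, and fell 2.74-fold (log2 -1.45 ± 0.18). DECR1, a reductase needed for unsaturated chains, fell 2.37-fold (log2 -1.25 ± 0.15), and ACAA2, a thiolase, fell 1.93-fold (log2 -0.95 ± 0.17). The trifunctional protein, which joins 3 activities for long chains at the inner membrane, changed less in value. HADHB, its thiolase subunit, fell 1.40-fold (log2 -0.48 ± 0.14), while HADHA, its other subunit, had 223.8, 382.9 and 340.4 CPM in the biopsies and 434.5 and 443.2 CPM in the controls and was not called (log2 -0.48 ± 0.23, edgeR adjusted p = 0.142). The electron transfer flavoprotein takes electrons from the dehydrogenases, and its subunit genes ETFA and ETFB fell 2.04-fold and 1.78-fold, with ETFDH, its oxidoreductase, lower by a log2 value of -0.58 ± 0.14.

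Calls for the mitochondrial class depended on both controls. Without control replicate 1, 8 members fell, and without control replicate 2, 5 fell (HADH, ACADL, ECHS1, ACAD10 and DECR1). Adjusted p was 0.0732 for ACADM, 0.0533 for ETFA and 0.12 for ETFB without control replicate 2. It was 0.0502 for ACAA2, 0.0752 for ACAD9 and 0.113 for ETFDH without control replicate 1, and 0.0663, 0.112 and 0.121 for the same genes without control replicate 2. HADHB (0.172 and 0.183) and ACADS (0.169 and 0.244) also failed without control replicate 1 or 2, and both failed without the 12 h biopsy (0.0531 and 0.0642) and without the 48 h biopsy (0.0546 and 0.0718), as did ACADS without the 24 h biopsy (0.0503) and without the count filter (0.0518).

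Of the 13 peroxisomal enzymes and transporters 12 fell and 0 rose by edgeR (0 at an unadjusted p under 0.05, and 0 by DESeq2), with a median log2 fold change of -1.04. EHHADH, the bifunctional hydratase and dehydrogenase of the peroxisomal cycle, had 359.2, 484.9 and 368.3 CPM in the biopsies, against 1706 and 1477 CPM in the controls. Every biopsy was far below both controls, and EHHADH fell 3.94-fold (log2 -1.98 ± 0.19, edgeR adjusted p = 0.000789). DECR2, the peroxisomal counterpart of DECR1, had 33.8, 45.5 and 29.6 CPM in the biopsies, against 111.4 and 133.0 CPM in the controls, and fell 3.36-fold (log2 -1.75 ± 0.20). PHYH, which starts the alpha-oxidation of phytanic acid, had 587.8, 605.3 and 444.8 CPM in the biopsies, against 1463 and 1691 CPM in the controls. It fell 2.89-fold (log2 -1.53 ± 0.19), and HACL1, the lyase that follows it in that pathway, fell as well (log2 -0.85 ± 0.12). Of the acyl-CoA oxidases for branched chains and bile acid precursors, ACOX3 fell 2.23-fold (log2 -1.15 ± 0.15) and ACOX2 1.38-fold (log2 -0.47 ± 0.14). HSD17B4, the second bifunctional enzyme, fell 2.06-fold, the thiolases ACAA1 and SCP2 2.22-fold and 2.23-fold, and the thioesterase ACOT8 1.94-fold. ABCD3, a transporter of branched-chain substrates into the organelle, fell 1.70-fold (log2 -0.77 ± 0.13).

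CAT encodes catalase, which breaks down the hydrogen peroxide that peroxisomal oxidases make. It had 2443, 2962 and 1966 CPM in the biopsies, against 4555 and 4928 CPM in the controls. The groups did not overlap, and CAT fell 1.93-fold (log2 -0.95 ± 0.23, edgeR adjusted p = 0.0169). It was at an adjusted p of 0.0812 and 0.122 without control replicate 1 or 2, HSD17B4 at 0.0555 and 0.0503, ABCD3 at 0.0505 and 0.0655 and ACOX2 at 0.184 and 0.186. Without control replicate 2 alone, ACAA1 (0.053), SCP2 (0.0536) and ACOT8 (0.0594) also failed, and ACOX2 failed without the 12 h (0.0531) or the 48 h biopsy (0.073). The class then had 8 members lower without control replicate 1 and 5 without control replicate 2. Both other genes shared between the compartments fell too, namely ECI2, an isomerase for unsaturated chains, 2.69-fold (log2 -1.43 ± 0.13), and ACAD11, a dehydrogenase for long chains, 2.56-fold (log2 -1.35 ± 0.17).

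Of the 13 PEX genes 8 fell and 0 rose by edgeR (0 at an unadjusted p under 0.05, and 0 by DESeq2), with a median log2 fold change of -0.48. PEX6, an ATPase that helps recycle the import receptor, had 19.3, 22.0 and 22.5 CPM in the biopsies, against 30.1 and 29.3 CPM in the controls. Its groups did not overlap, and PEX6 fell 1.40-fold (log2 -0.48 ± 0.13, edgeR adjusted p = 0.0236). PEX11G and PEX11A, which act in peroxisome elongation and division, fell 2.70-fold (log2 -1.43 ± 0.23) and 1.52-fold (log2 -0.61 ± 0.15). PEX2, a ring-finger subunit of the import machinery, fell 1.56-fold. Of the cargo receptors, PEX7 fell 1.43-fold (log2 -0.52 ± 0.13) and PEX5 1.35-fold (log2 -0.43 ± 0.13). PEX5L fell 4.68-fold (log2 -2.23 ± 0.35), at a low level of 0.774, 1.10 and 1.31 CPM in the biopsies, against 6.23 and 3.71 CPM in the controls. PEX5L is a paralog of PEX5 that is known for binding ion channels in the brain. PEX3 and PEX16, which insert peroxisomal membrane proteins, and PEX13 and PEX14, which form the docking site, were not called, at log2 values from -0.35 to 0.42.

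With either control left out, 2 PEX genes fell in each fit. Adjusted p without control replicate 1 and control replicate 2 was 0.0786 and 0.109 for PEX2, 0.108 and 0.133 for PEX11A, 0.0751 and 0.167 for PEX7, 0.142 and 0.138 for PEX6 and 0.166 and 0.194 for PEX5. PEX5L was at 0.0508 without control replicate 1 and PEX11G at 0.058 without control replicate 2. PEX5 also failed without the 24 h (0.0569) or the 48 h biopsy (0.0664), and PEX6 without the 24 h biopsy (0.0543), which left 6 PEX genes lower without the 24 h biopsy. With DESeq2, PEX3 passed as well (log2 -0.36, DESeq2 adjusted p = 0.0417), which took the count to 9.

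Set side by side, 12 of 13 peroxisomal and 13 of 19 mitochondrial members fell, and the median log2 fold change was -1.04 for the peroxisomal and -0.62 for the mitochondrial class, against 0.03 for all genes tested. In each biopsy the peroxisomal median was below the mitochondrial one relative to the controls, at -1.29 against -0.97 at 12 h, -0.84 against -0.60 at 24 h and -1.09 against -0.66 at 48 h. The difference of the class medians was 0.42 and was 0.24 when ECI2, CRAT and ACAD11 were added to the mitochondrial genes. The 2 classes overlapped widely, from -1.98 to 0.20 for peroxisomal and from -1.90 to 0.89 for mitochondrial members. No test was made of the difference between the classes. The summed level of the peroxisomal class was 4881, 6000 and 4370 CPM in the biopsies, against 11090 and 11620 CPM in the controls, and that of the mitochondrial class 3941, 4815 and 3864 CPM, against 7994 and 8859 CPM.

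**Figure D2:**
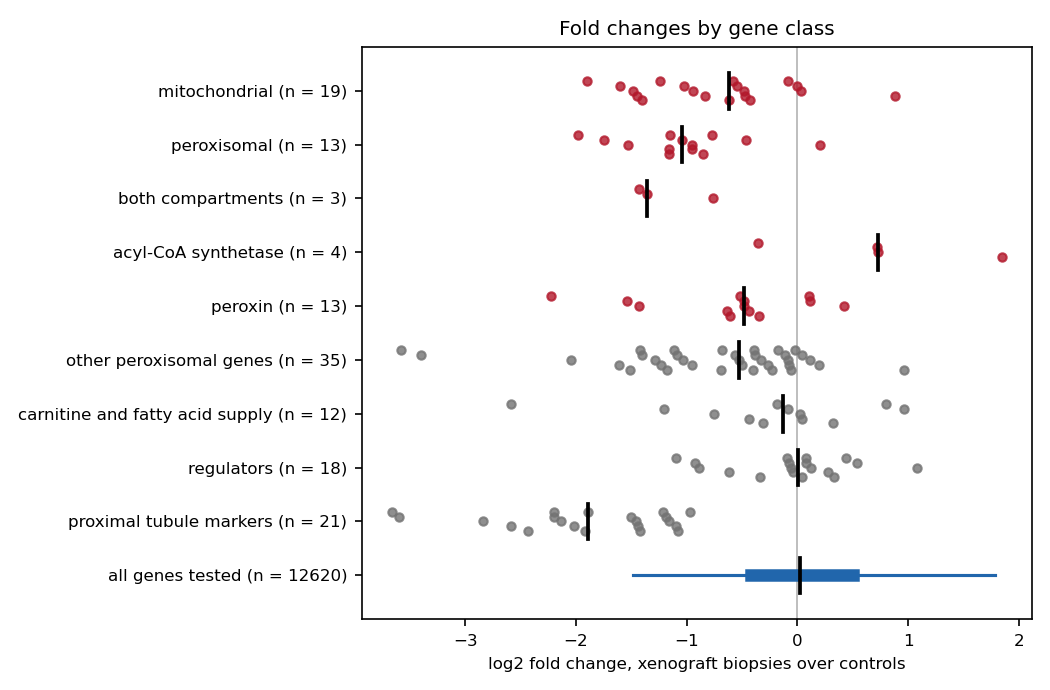
Each point is 1 gene, placed by its log2 fold change of xenograft biopsies over controls, and black bars mark medians; for all genes tested the thick bar spans the interquartile range and the thin line the 5th to 95th percentile. The peroxisomal median (-1.04) lies left of the mitochondrial (-0.62) and PEX (-0.48) medians, 3 of 4 acyl-CoA synthetases lie right of 0, and proximal tubule markers have the lowest median (-1.89). With library totals alone every median shifts right by about the same amount. Those of the carnitine and regulator lists are then 0.35 and 0.49, and that of all genes is 0.51.

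The scaling of the libraries bears on all these values. With library totals alone and no correction for composition, the median of all genes tested moved up by 0.49 on the log2 scale, 19 members fell and 10 rose, where 7.69% of all genes fell and 41.5% rose. Relative to the median of all genes in each fit, the mitochondrial median was -0.64 with library totals alone and -0.65 with TMM, the peroxisomal median -1.08 and -1.07, and the PEX median -0.52 and -0.51. The value of 8 members turned above 0 with library totals alone, of which ACADS (0.06), ACOX2 (0.01), PEX5 (0.05) and PEX6 (0.003) were called lower with TMM. Calls for CAT (log2 -0.47), ACAA2, ETFB, ETFDH, ACAD9, HADHB, ACOT8, ABCD3, HACL1, CRAT, PEX2, PEX7 and PEX11A were lost there, and CPT1B, ACADVL, CROT, PEX13, PEX14 and PEX16 were then called higher. With upper-quartile scaling ACADS, HADHB, ACOX2, PEX5 and PEX6 were not called (adjusted p from 0.0502 to 0.0776). Leaving the 13 mitochondrially encoded genes out of the table changed the call of 0 members, and 12 of the 40 calls, all lower and among them ACADL, HADH, ECHS1, ACAD10, DECR1, EHHADH, DECR2, PHYH, ACOX3, ECI2 and ACAD11, held in each of the 13 alternative fits.

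**Figure D3:**
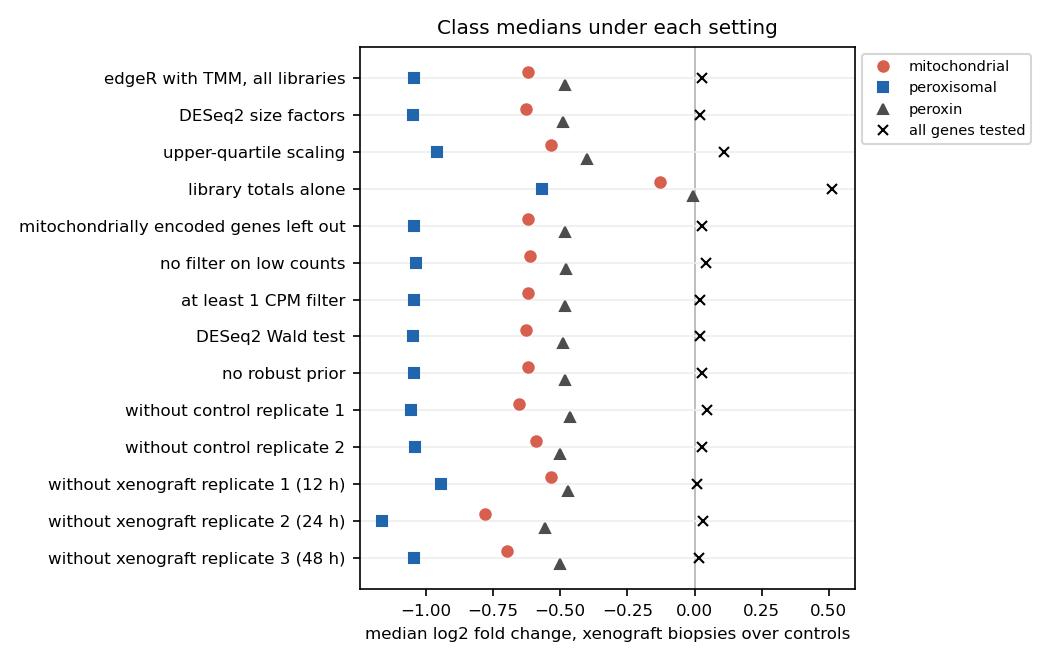
Each row is 1 way of fitting the data, and points are medians of log2 fold changes of xenograft biopsies over controls for the mitochondrial, peroxisomal and PEX classes and for all genes tested. The peroxisomal median lies left of the mitochondrial median in each row, and with library totals alone all 4 medians shift right together, that of all genes to 0.51 and that of the PEX class to -0.005.

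Within the xenograft, few members were called for a slope between 12 and 48 h. Over all genes, 3.34% rose and 0.983% fell with time, and among the members 0 rose (1 at an unadjusted p under 0.05, and 0 by DESeq2) and 1 fell. That member was PEX16, which was at 75.1, 42.3 and 32.8 CPM at 12, 24 and 48 h, against 34.5 and 40.2 CPM in the controls. The 12 h biopsy stood far above both controls, and PEX16 fell by 0.74 ± 0.16 (SE) on the log2 scale per 24 h (edgeR adjusted p = 0.0402). The call was lost with control replicate 1 or 2 left out (0.052 and 0.051), in the fit lacking the 12 h biopsy (log2 -0.37, edgeR adjusted p = 0.241) and with a filter of at least 1 CPM (0.0557). ACADM, at 830.6, 743.2 and 405.4 CPM, had nearly the same slope (log2 -0.72 ± 0.18 per 24 h) but did not pass by edgeR (adjusted p = 0.0717), and passed by DESeq2 (0.00015). Counts of members with a slope changed with the biopsies used, to 0 higher and 2 lower lacking the 12 h biopsy, 4 and 3 lacking the 24 h biopsy and 6 and 3 lacking the 48 h biopsy, where 5.28% and 2.69%, 13.8% and 8.28%, and 7.52% and 4.68% of all genes were called higher and lower. With 1 biopsy per time, a slope joins single samples, and time and sampling site cannot be told apart.

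The order of the biopsies was uneven. In 35 of 52 members, 16 of 19 mitochondrial and 11 of 13 peroxisomal, the 24 h biopsy was the highest of the 3, where 26.5% of all genes tested had their highest biopsy at 24 h. Of the proximal tubule markers, 15 of 21 were highest at 24 h as well. The acyl-CoA synthetases differed, with 3 of 4 highest at 12 h, where 38.8% of all genes were highest. The PEX genes differed as well, with 2 of 13 highest at 12 h, 5 at 24 h and 6 at 48 h. Of all genes, 34.7% were highest at 48 h. The spread between biopsies reached 2.29-fold in PEX16, 2.05-fold in ACADM and 1.82-fold in ACADSB, which had its highest value of all 5 libraries at 24 h.

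**Figure D4:**
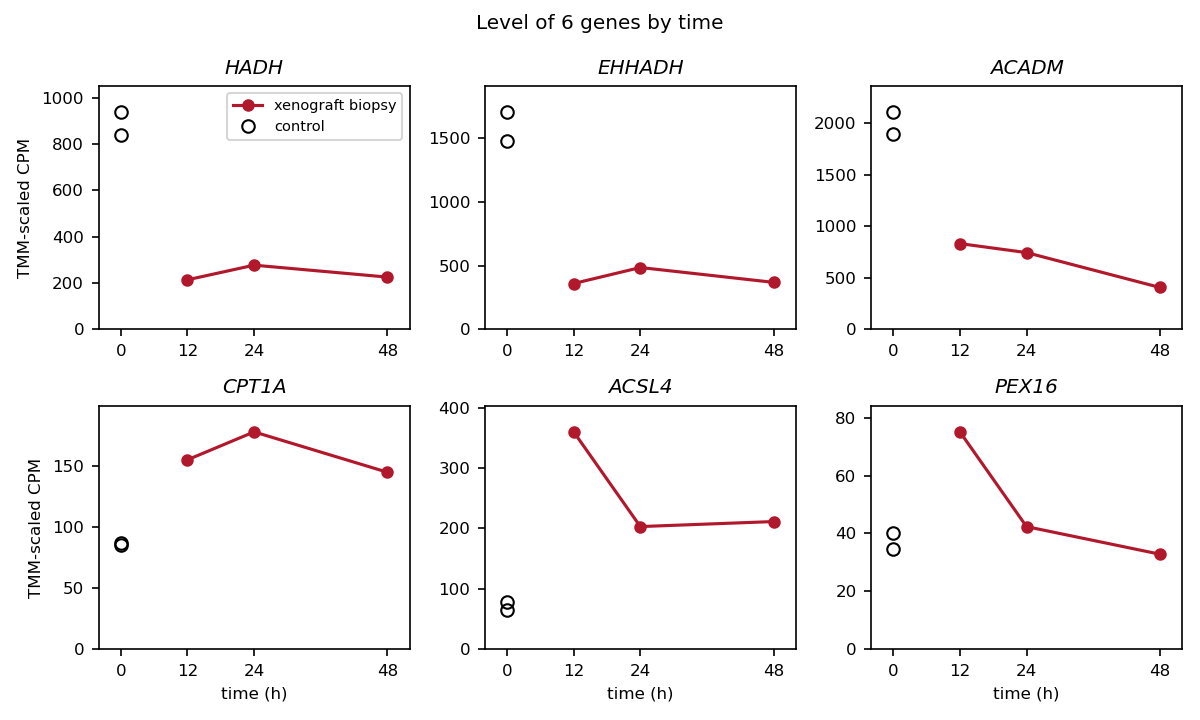
TMM-scaled CPM by time in hours for 6 genes, with open circles for the 2 controls at 0 h and filled circles joined by a line for the single biopsies at 12, 24 and 48 h. HADH, EHHADH and ACADM lie below both controls at each time, CPT1A and ACSL4 lie above both, and PEX16 lies above both at 12 h (75.1 CPM) and under both at 48 h (32.8 CPM).

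Other genes of these pathways were taken from lists, whose counts stand beside the 19.0% of all genes tested that fell and the 18.5% that rose. Of 12 tested genes of carnitine and fatty acid supply, 3 fell and 1 rose (median -0.13), counts near those shares at this list size. BBOX1, the last enzyme of carnitine synthesis, had 66.3, 130.2 and 111.8 CPM in the biopsies, against 627.8 and 606.4 CPM in the controls, and fell 6.01-fold (log2 -2.59 ± 0.28, edgeR adjusted p = 0.00115). TMLHE, the first enzyme of that pathway, fell 2.30-fold, and SLC25A20, which carries acylcarnitines across the inner mitochondrial membrane, fell 1.68-fold. ACACA, which makes malonyl-CoA, rose 1.74-fold (log2 0.80 ± 0.18). SLC25A20 was at an adjusted p of 0.0946 and 0.114 without control replicate 1 or 2, at 0.287 with library totals alone, and ACACA at 0.139 without control replicate 2. Lacking the 12 h biopsy, 3 genes of the list rose, where 21% of all genes did. With library totals alone 4 rose and 2 fell, where 41.5% of all genes rose and 7.69% fell. The list median was then 0.35, below the 0.51 of all genes. The fatty acid uptake gene CD36 ranged from 12.1 to 70.0 CPM in the biopsies, against 42.4 and 31.7 CPM in the controls.

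Of 18 regulators, 3 fell and 1 rose (median 0.002), with the number that fell near the share of all genes, 19.0%. PPARA, the nuclear receptor that drives many genes of fatty acid oxidation, had 24.9, 32.4 and 24.1 CPM in the biopsies, against 69.7 and 46.6 CPM in the controls, and fell 2.14-fold (log2 -1.10 ± 0.21, edgeR adjusted p = 0.0075). Its partner RXRA fell 1.85-fold (log2 -0.89 ± 0.11) and SIRT3, a mitochondrial deacetylase, 1.90-fold (log2 -0.92 ± 0.14). PPARG rose 2.11-fold at a low level, with 3.26, 4.04 and 4.63 CPM in the biopsies, against 2.06 and 1.71 CPM in the controls. The coactivator PPARGC1A was at 103.0, 103.1 and 85.2 CPM in the biopsies and at 111.0 and 96.7 CPM in the controls (log2 -0.10 ± 0.14, edgeR adjusted p = 0.611). PPARA was at an adjusted p of 0.0702 without control replicate 1, SIRT3 at 0.0508 without control replicate 2, and PPARG at 0.106 and 0.185 with control replicate 1 or 2 left out and at 0.0638 lacking the 24 h biopsy, so that 2 regulators fell and 0 rose with either control left out (1 and 0 higher at an unadjusted p under 0.05). Lacking the 12 h biopsy 5 regulators fell, where 21% of all genes did, and lacking the 48 h biopsy 2 rose, where 20.2% did. With library totals alone 1 regulator fell and 7 rose, near the 7.69% and 41.5% of all genes in that fit. The list median was then 0.49, against 0.51 for all genes, and RXRA (0.0775) and SIRT3 (0.0823) were not called.

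Genes known as targets of PPARA or of ketone metabolism fell in 6 of 13 and rose in 1, UCP2 (median -0.68). VNN1, a pantetheinase gene, fell 3.82-fold (log2 -1.93 ± 0.44), ACSM3, a medium-chain synthetase, 2.45-fold (log2 -1.29 ± 0.13), PDK4, which holds back glucose oxidation, 2.36-fold (log2 -1.24 ± 0.37) and ACOT4, a peroxisomal thioesterase, 1.92-fold (log2 -0.95 ± 0.12). VNN1 was at an adjusted p of 0.0865 and 0.0933, PDK4 at 0.156 and 0.17 and UCP2 at 0.106 and 0.17 with control replicate 1 or 2 left out, and 2 and 3 genes of the list then fell. PDK4 also failed lacking the 48 h biopsy (0.0647) and with no count filter (0.0507). With library totals alone VNN1 (0.11) and PDK4 (0.222) failed and 2 genes of the list fell, where 7.69% of all genes did.

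Peroxisomal genes outside the members fell in 18 of 35 and rose in 0 by edgeR (1 at an unadjusted p under 0.05, and 1 by DESeq2), with a median of -0.53. HAO1, PIPOX, DDO and AGXT had the largest falls of the list by log2 fold change. HAO1, which oxidises glycolate, had 30.0, 22.5 and 22.1 CPM in the biopsies, against 278.1 and 318.2 CPM in the controls, and PIPOX, which oxidises pipecolate and sarcosine, had 4.17, 2.56 and 4.01 CPM, against 33.9 and 41.6 CPM. Both groups of values were far apart, at 12.0-fold lower (log2 -3.58 ± 0.18) for HAO1 and 10.5-fold lower (log2 -3.40 ± 0.24) for PIPOX. DDO, which oxidises D-aspartate, fell 4.12-fold, and AGXT, which detoxifies glyoxylate, fell 3.06-fold. HAO2, a second hydroxy acid oxidase, was not called against the controls but fell with time, at 1007, 969.3 and 393.2 CPM at 12, 24 and 48 h (log2 -0.97 ± 0.21 per 24 h, edgeR adjusted p = 0.0371). The count was 12 without control replicate 1 and 8 without control replicate 2, while 12 fell and 4 rose with library totals alone.

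Of 17 genes of lipid droplets and triglyceride turnover, 6 fell and 3 rose (median -0.30), where 19.0% of all genes fell and 18.5% rose, so that the number that rose was near the background. SCD, the desaturase that makes monounsaturated fat, fell 4.98-fold (log2 -2.32 ± 0.20), DGAT2, which makes triglycerides, 3.09-fold and PLIN5, a droplet protein of oxidative tissues, 2.34-fold, while LIPE, encoding hormone-sensitive lipase, rose 2.91-fold, at 2.75, 3.16 and 2.85 CPM in the biopsies, against 1.02 and 0.979 CPM in the controls. With control replicate 1 or 2 left out, 2 and 1 fell and 0 rose (2 and 3 higher at an unadjusted p under 0.05), with PLIN5 at an adjusted p of 0.0912 and 0.156, LIPE at 0.0664 and 0.082 and, for control replicate 2, DGAT2 at 0.0725. Lacking the 48 h biopsy 5 rose, where 20.2% of all genes did. With library totals alone 7 rose and 3 fell, where 41.5% of all genes rose and 7.69% fell. The list median was then 0.19, below the 0.51 of all genes.

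Markers of the proximal tubule moved with the members. All 21 tested markers fell, 15 without control replicate 1 and 14 without control replicate 2, with a median log2 fold change of -1.89 and a range from -3.66 to -0.97. Their summed level was 28420, 31440 and 21240 CPM in the biopsies, against 64760 and 73880 CPM in the controls, and none of them was at 0. Of all genes, 19.0% fell with TMM and 7.69% with library totals alone, where 18 of the 21 markers fell. HADH, EHHADH and PEX5L had values below the marker median, and 19 of the 52 members lay below the marker with the smallest fall. The part of the tubule markers, and of the share of mitochondrially encoded counts, in the members' values was not tested.

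Markers of other cell types differed in direction, where 18.5% of all genes rose and 19.0% fell. Endothelial markers rose in 6 of 10 (summed level from 1095 to 1255 CPM in biopsies, against 548.3 and 664.1 CPM in controls), fibroblast and smooth muscle markers in 7 of 9 (from 2231 to 6400 CPM, against 1039 and 1401 CPM) and collecting duct markers in 5 of 11 (from 1094 to 1355 CPM, against 1051 and 1126 CPM). Leukocyte markers rose in 5 of 12 and fell in 3 (from 830.6 to 1125 CPM, against 438.3 and 492.9 CPM), podocyte markers fell in 5 of 7 and rose in 1 (from 180.0 to 258.9 CPM, against 337.1 and 405.3 CPM), and thick limb and distal tubule markers rose in 3 of 11 and fell in 3 (from 5617 to 9953 CPM, against 5958 and 6488 CPM). Sums follow the most abundant markers. CD79A alone gave 532.1, 575.0 and 702.7 CPM of the leukocyte sums in the biopsies, against 356.2 and 402.9 CPM in the controls. PTPRC, a general leukocyte marker, was not called (log2 -0.29). UMOD and CALB1 held most of the thick limb and distal sums, and the median log2 fold change of that list was -0.52. With 1 library left out at a time, the numbers that rose ranged from 2 to 7 for endothelial, from 0 to 8 for fibroblast, from 1 to 7 for collecting duct and from 4 to 8 for leukocyte markers, and podocyte markers that fell from 1 to 5, with the lowest count without control replicate 2 (equal without control replicate 1 for the leukocyte and podocyte markers). Leukocyte markers that fell ranged from 0 to 4, and thick limb and distal markers from 1 to 3 higher and from 0 to 5 lower, the lowest again with a control left out. With library totals alone, 41.5% of all genes rose and 7.69% fell, and the counts in that fit stand beside these shares. Collecting duct markers then rose in 10 of 11, and leukocyte markers rose in 8 of 12 with 0 lower. Endothelial markers then rose in 7 of 10 and fibroblast and smooth muscle markers in 5 of 9. Podocyte markers then fell in 3 of 7 and rose in 1, and thick limb and distal tubule markers rose in 3 and fell in 2. The adipose markers summed to between 45.5 and 63.0 CPM in biopsies, against 82.4 and 83.6 CPM in controls, with LEP at 0 and 2 of 4 tested lower. With library totals alone, 2 of these rose and 1 fell. Markers of skeletal and heart muscle summed to between 0.788 and 2.21 CPM in biopsies, against 1.36 and 1.37 CPM in controls. Their part in the members' values was not tested.

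Some counts may be shared with neighbours. The strand setting of the counting was not given, and 11 of the 52 members overlap another gene of the pig table in the RefSeq annotation of the pig genome, among them ACADVL, ACADSB, ACAD10, ACAA1, ACOT8, HACL1, ACAD11, PEX3, PEX6 and PEX11A. Overlap was taken from whole gene spans, and whether the exons overlap was not checked. Where exons overlap, reads of such pairs could not be told apart without strand. Among the neighbours with high mean counts were FUCA2 beside PEX3 and BTD beside HACL1 (8795), and the values of the 11 members are uncertain where exons overlap.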

How the data were processed

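Bulk RNA sequencing covered 5 pig kidney libraries, 3 xenograft biopsies and 2 controls. The authors deposited raw counts per gene symbol for the pig and the human genome, as whole numbers with a different total per library. The labels' protocols give ribosomal RNA depletion, and the submitters' processing notes give hg38. The sources used here do not give an aligner, a counting tool, a strand setting or the pig annotation. Columns were matched to libraries by time and replicate in their names.

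The tests were run with edgeR 4.0.16 (R 4.3.3) after TMM scaling, filterByExpr (minimum count 10, minimum total 15) and the quasi-likelihood test with a robust prior. An SE was taken from the size of the log2 fold change over the root of its F statistic. Xenograft against control had 3 residual degrees of freedom, so that change over time counts toward its spread, and the slope over 12, 24 and 48 h had 2, with the controls adding only to the spread. DESeq2 1.42.0 was an alternative, as were other scalings, filters, and each library left out. With 1 control left, its spread is assumed to equal that of the biopsies. Both tests were tested on simulated data. The control libraries differed by more than sampling noise (chi-square per degree of freedom 213). That value was taken on raw counts set against library totals, without TMM, so it includes differences in composition. The lowest count of a member in any library was 56, for PEX5L, whose values carry the most counting error.

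The members and lists were chosen with earlier results of these data known. All members may be named. Full values went mainly to called members by size of change within their class, to those that rose and to the synthetases. PEX6, and some members that were not called, such as ACADVL and CPT1B, were given full values outside that order. Of each pathway list the 4 largest called changes were named. Planned searches of promoters and protein targeting signals were not run, since no sequences were used here. A few genes of the lists are counted but not reported by name here.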

Additional observations from a re-analysis of the deposited data

Results flagged for a closer look

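Counts in the human table, which the comparisons above do not use, were looked at for the members. In 7 of 52 members, human-table counts scaled to the pig library sizes were above both controls in all 3 biopsies, and in 34 they were below both. Over 12411 genes present in both tables, 48.4% were above and 17.9% below, and the whole human table held 31.2, 29.0 and 33.4 counts per 100 pig-table counts in the biopsies at 12, 24 and 48 h, against 22.8 and 18.8 in the controls. All 34 members below the controls in the human table were also below them in the pig table, and 4 of the 7 were above them in both. The 7 were CPT1A, ACOX3, ACSL1, ACSL3, ACSL4, ACSL5 and PEX2. The controls held human-table counts as well, and the median over members, per 100 counts of the pig table, was 20.0, 18.4 and 19.3 in these biopsies, against 17.2 and 15.4 in the controls. On the same scale ACSL1 had 17.7, 15.1 and 19.1 in the biopsies, against 10.3 and 11.3 in the controls, and was lower in the pig table in value. For PEX2 the figures were 11.5, 6.86 and 11.9 in the biopsies, against 2.98 and 3.50 in the controls. For ACOX3 they were 5.56, 4.1 and 6.36, against 1.6 and 1.74, from 25 to 54 human-table counts per library. For CPT1A they were 5.59, 5.42 and 6.38, against 4.16 and 2.98. ACSL3 differed little, at 46.2, 45.8 and 45.2 in the biopsies and 44.4 and 46.2 in the controls. Reads that fit both genomes may count in either table, and no test of the difference was made.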

How the results depend on the processing

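The direction and call of every member were the same with DESeq2 size factors, with the mitochondrially encoded genes left out and without the robust prior, apart from sign for CPT1B at a value near 0, and the class counts moved by less than 1.5 times with upper-quartile scaling and other filters for xenograft against control. With library totals alone, 10 members were higher and 19 lower, made up of 3 and 7 mitochondrial, 1 and 7 peroxisomal and 3 and 3 PEX genes plus other classes, the medians were -0.13 for mitochondrial, -0.57 for peroxisomal and -0.005 for PEX genes, and ACADS (0.064), ACOX2 (0.013), PEX5 (0.047) and PEX6 (0.003) changed sign. This scaling alone raised the median of all genes by 0.49. With 1 library left out at a time, members called higher ranged from 0 to 4 and lower from 14 to 34, with 21 lower without control replicate 1. Mitochondrial genes ranged from 0 to 1 higher and from 5 to 13 lower, peroxisomal genes from 5 to 12 lower and PEX genes from 2 to 8 lower, the medians running from -0.78 to -0.53, from -1.16 to -0.94 and from -0.56 to -0.46. For the slope, members ranged from 0 to 6 higher and from 0 to 3 lower, mitochondrial from 0 to 4 and from 0 to 1, peroxisomal from 0 to 1 and from 0 to 1, and PEX genes from 0 to 1 and from 0 to 1. Library totals alone and DESeq2 each gave 2 members with a falling slope, 1 of them mitochondrial, and the filter of at least 1 CPM gave 0 members and 0 PEX genes. The difference of the class medians was 0.24 with the genes of both compartments counted as mitochondrial. The causes of the slope differences were not tested. No paired analysis was possible, since the biopsies share a single graft and the labels match no control to a biopsy. The precision is limited by the number of libraries, 3 biopsies and 2 controls.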
